A study of Mus musculus with 2 samples.

Results

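The 10 genes described here act in antigen presentation by MHC class II, and their signals were read in TCRαβ+CD8αα+ intraepithelial lymphocytes (IELs) of the mouse small intestine, from mice with floxed *Rbpj* alleles with and without a labelled CD4-Cre transgene. They were chosen by name and function after differences of this same contrast, among them those of *Cd74*, *H2-Aa* and *H2-Ab1*, had been seen. The contrast is therefore given for them as a description, without a test. All 10 genes had a probe whose RefSeq accession names the gene. Together they took 11 probes of the 27509 with a gene symbol, and 10 of 20887 named genes.

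MHC class II molecules are heterodimers of an alpha and a beta chain that show peptides from endosomes to CD4+ T cells. They are made mainly by dendritic cells, macrophages, B cells and, in the small intestine, epithelial cells. The invariant chain fills the groove of a new class II molecule until endosomal cathepsins trim it, and the DM heterodimer then exchanges its last fragment for a peptide. The coactivator CIITA, which is induced by interferon gamma in many cells, turns on most of these genes through shared X and Y boxes in their promoters. Mouse T cells are not known as a main source of class II molecules.

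Each genotype was measured once, on 1 Agilent array of 1 color, with total RNA pooled from several isolations, so that 2 arrays were compared. The Control mice carried floxed *Rbpj* alleles (Rbpjf/f), and the RFF4 mice carried the same alleles with the CD4-Cre transgene (CD4-Cre Rbpjf/f), which is active in T cells from a thymic stage on. The paper describes the controls as *Rbpj* wild-type mice with CD4-Cre, whereas the labels name no Cre for them. All mice were C57BL/6, both sexes were pooled, and the labels give an age of 8 to 12 weeks. The cells were depleted of CD4+ and TCRγδ+ cells and then sorted as TCRβ+ cells lacking CD8β. With 1 array a genotype, no spread between mice and no p-value exist. The errors available are technical, between spots of the same array and as the scanner software estimates them for a spot.

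The array labelled RFF4 was the dimmer of the pair. Of 59305 spots with gene probes, 57.2% were well above background on the Control array and 49.7% on the other, and the signal at the 75th percentile of probes was 8.78 and 7.63 on the log2 scale. Unless stated otherwise, levels are log2 signals minus that percentile of the same array, and differences are RFF4 minus Control. After this scaling *Rbpj* itself was not lower on the array labelled RFF4, with differences of 0.31 for its brighter probe and 0.81 for the other. Its unscaled signals were lower there, 1101 against 1979 and 148 against 188, and with the spike-in controls made equal the differences were −0.80 and −0.30, so that its direction depends on the scaling. The position of the probes relative to the floxed exons is not given in the sources used here. The Notch target genes *Heyl* and *Dtx1* were lower there, with differences of −3.81 and −3.64.

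Among the promoters of these genes, 5 are shown because they hold the letters searched for: those of the class II chains *H2-Eb1* and *H2-Aa*, of *H2-DMb1* and *H2-Oa*, and of the protease gene *Ctss*. Each sequence is the 150 bases before the RefSeq start site on the gene's strand, in build GRCm38.p6. Capitals mark the core letters of the X box (AACNGATG), of the Y box (TGATTGG) and of an interferon element (GAAANNGAA), searched on both strands. The H2 genes lie together on chromosome 17, in the mouse MHC, and *Ctss* lies on chromosome 3.
H2-Eb1, chr17:34305717-34305866, plus strand: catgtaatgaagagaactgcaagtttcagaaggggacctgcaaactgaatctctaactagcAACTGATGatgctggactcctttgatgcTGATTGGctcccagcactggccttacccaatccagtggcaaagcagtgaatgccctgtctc
H2-DMb1, chr17:34153041-34153190, plus strand: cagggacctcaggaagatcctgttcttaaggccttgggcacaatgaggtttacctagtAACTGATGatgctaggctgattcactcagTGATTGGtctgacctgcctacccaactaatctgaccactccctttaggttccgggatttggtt
H2-Aa, chr17:34287824-34287973, minus strand: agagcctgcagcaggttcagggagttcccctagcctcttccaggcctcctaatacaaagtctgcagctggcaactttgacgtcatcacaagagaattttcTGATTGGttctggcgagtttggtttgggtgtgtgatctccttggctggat
H2-Oa, chr17:34092229-34092378, plus strand: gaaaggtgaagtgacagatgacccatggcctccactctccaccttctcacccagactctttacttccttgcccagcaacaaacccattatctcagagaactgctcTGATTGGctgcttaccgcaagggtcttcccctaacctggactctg
Ctss, chr3:95526636-95526785, plus strand: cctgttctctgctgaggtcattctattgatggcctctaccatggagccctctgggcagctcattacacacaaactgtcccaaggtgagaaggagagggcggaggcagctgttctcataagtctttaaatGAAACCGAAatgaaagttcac

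The X box core stood upstream of the Y box core in 2 of the 7 windows found for these genes, those of *H2-Eb1* and *H2-DMb1*. Windows from 250 bases before the start site to 50 after it were found for 6 of the 10 genes, and *H2-DMa* had 2 of them. In *H2-Eb1* the Y box core began 61 bases before the start site, and in *H2-DMb1* 63 bases before it, 28 and 29 bases after the start of the X box core. The same order within 10 to 40 bases occurred in 7 of all 32851 windows (0.0213%). In *H2-Aa* and *H2-Oa* the Y box core alone was matched, 50 and 45 bases before the start site. It occurred in 7.82% of all windows and the X box core in 2.32%. In *Ctss* the interferon element began 21 bases before the start site, and 8.56% of all windows held it. The X box core of *Ctss*, 207 bases upstream, lay outside the stretch shown. Neither *H2-DMa* window held any of the 3 motifs. Both windows lie inside the RefSeq span of that gene, past its first base. They do not show what stands before its other start sites. A further motif, not named here, was searched and had no match in the member windows. The letters were settled after the windows of these genes had been read, so that the matches are a description of the sequences and not of binding.

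**Figure D1:**
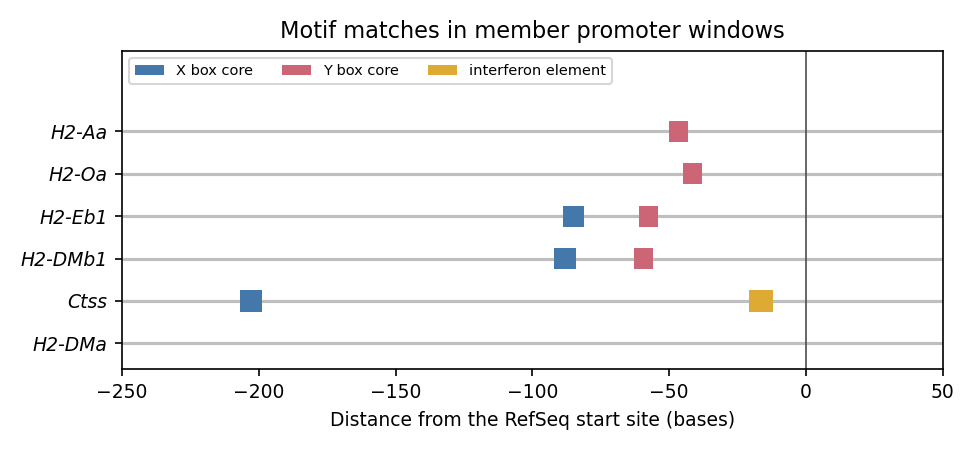
Matches of the X box core, Y box core and interferon element in the promoter windows of 6 genes, by distance in bases from the RefSeq start site. The X box core precedes the Y box core in *H2-Eb1* and *H2-DMb1*, and only the Y box core has an exact match in *H2-Aa* and *H2-Oa*. Neither of the windows of *H2-DMa*, drawn as 1 line and both inside the span of the gene, has a match.

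On the array labelled RFF4, 6 of the 10 genes exceeded their Control level more than 4-fold. They were the invariant chain gene *Cd74*, the classical chain genes *H2-Aa*, *H2-Ab1* and *H2-Eb1*, and the peptide editor genes *H2-Oa* and *H2-DMb1*. *Ctss* and *H2-DMa* were higher by less than 2-fold, *Cd86* was lower, and *Ciita* could not be compared. Over all 13519 genes with a difference, 1.79% were past 4-fold in this direction and 12.1% past 2-fold. As the members were chosen with this contrast in view, nothing is read from their count beside that share. The median of the 9 measured members was 2.37, and that of all genes was −0.03. In a sorted pool, more cells of a kind that makes these transcripts and more transcript per cell cannot be told apart.

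The invariant chain gene *Cd74* showed the largest difference of the 10. Its background-subtracted signal was 1444 on the Control array and 6625 on the array labelled RFF4. After scaling, its level went from 1.71 to 5.07, a difference of 3.35 ± 0.07 (SD between repeated spots at such levels), or 10.2-fold. It stood at rank 23 from the top among all genes with a difference.

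The classical class II molecule of this strain pairs the products of *H2-Aa* and *H2-Ab1*. *H2-Ab1*, which encodes the beta chain, was read by a pair of probes, the only member with more than 1. The brighter had signals of 2907 and 9560 and a difference of 2.88 ± 0.07 (7.34-fold). The other had 2492 and 8636 and a difference of 2.95, so that the probes differed by 0.08. *H2-Aa*, the alpha chain gene, had signals of 231 and 793. Its level went from −0.93 to 2.01, a difference of 2.93 ± 0.09, which is 7.65-fold. Both chains of the heterodimer were thus higher by about the same amount, and their difference of 0.06 is within the spread between spots. *H2-Eb1*, the beta chain gene of the other class II isotype, had signals of 2436 and 5637. Its difference was 2.37 ± 0.07, or 5.16-fold.

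The peptide editors split into higher and little-moved members. H2-M, the mouse DM molecule, is built from the products of *H2-DMa* and *H2-DMb1*. *H2-DMb1* had signals of 673 and 1500 and a difference of 2.32 ± 0.09 (4.98-fold). Its partner *H2-DMa* had signals of 1943 and 1469, lower in raw signal on the array labelled RFF4, and a difference of 0.75 ± 0.07 (1.69-fold) after scaling. The partners thus differed by 1.56 in their log2 differences, a gap that no common scaling constant alters. *H2-Oa* encodes the alpha chain of H2-O, which restrains H2-M. Its signals of 74.2 and 237 gave a difference of 2.84 ± 0.26, or 7.14-fold, with the larger error of a dim spot.

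The remaining members are a protease, a coactivator and a costimulatory ligand. None of them was measured past 2-fold, and the coactivator gene could not be compared. *Ctss* encodes cathepsin S, which trims the invariant chain. Its signals were 5481 and 4174, and its difference was 0.76 ± 0.07 (1.70-fold) after scaling. *Cd86* encodes a ligand of CD28 on antigen-presenting cells. Its signals were 78.6 and 25.9, both marked as well above background, although the second is less than its local background of 45. Its level of −2.49 on the Control array stood against −2.93 on the other. The difference of −0.44 compares with an SD of 0.33 between spots as dim as these. Normexp background correction turned it to 0.19. *Ciita*, the coactivator gene, had a signal of 17.4 on the Control array, also less than its local background of 26. The scanner software marked this signal as well above background, but not the signal of 13.2 on the array labelled RFF4. Neither a fold nor a direction can be given for it.

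**Figure D2:**
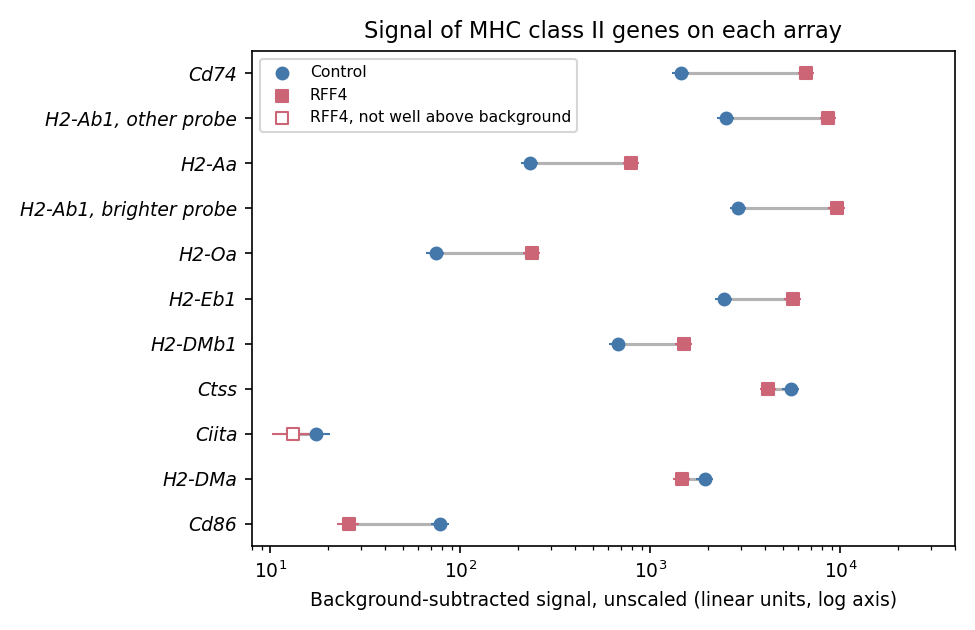
Background-subtracted signal of each member probe on the Control array (circles) and the array labelled RFF4 (squares), before any scaling, on a log axis, with the error that the scanner software gives each spot. The signals of *Cd74*, *H2-Ab1*, *H2-Aa*, *H2-Oa*, *H2-Eb1* and *H2-DMb1* are higher on the array labelled RFF4, and those of *Ctss*, *Ciita*, *H2-DMa* and *Cd86* are lower. Probes bind with different strength, so signals compare within a gene only.

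The split was visible before scaling. Unscaled, 6 genes had the higher signal on the array labelled RFF4, by 2.23-fold to 4.59-fold, and 4 had the lower signal, although that array was the dimmer one. The direction of *Ctss* and *H2-DMa* thus depended on the scaling. Setting 8 spike-in controls equal, which lowers every gene by the same constant, gave −0.35 for *Ctss* and −0.36 for *H2-DMa*. The same scaling gave 2.24 for *Cd74*, 1.82 for *H2-Aa*, 1.76 for *H2-Ab1*, 1.72 for *H2-Oa*, 1.26 for *H2-Eb1* and 1.20 for *H2-DMb1*, and −1.55 for *Cd86*, which is then past 2-fold lower. Only *Cd74* was then past 4-fold higher, and all 6 genes of the higher set were past 2-fold.

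In the order of differences, *Cd74* stood above *H2-Aa* by 0.42, more than 2 times the SD of that gap. *H2-Aa*, *H2-Ab1* and *H2-Oa* followed, and neighbours among them did not differ beyond that limit, nor did *H2-Oa* and *H2-Eb1* (0.47, SD of the gap 0.27), nor *H2-Eb1* and *H2-DMb1*. A gap of 1.55 separated *H2-DMb1* from *Ctss*, 13.6 times its SD. *Ctss* and *H2-DMa* differed by 0.01, and *Cd86* lay 1.20 below them. These SDs cover repeated spots of an array and no variation between pools of cells. For the bright members the scanner software gives a larger error, 10% of the signal of a single spot, which comes to 0.20 on the log2 scale for a difference. For the dim *H2-Oa* and *Cd86* its errors, 0.21 and 0.25, are below the SDs between spots. By that error *Cd74* and *H2-Aa* are 1.45 errors of their gap apart and are not separated, while the gaps of *H2-DMb1* to *Ctss* and of *H2-DMa* to *Cd86* remain beyond 2 of them.

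**Figure D3:**
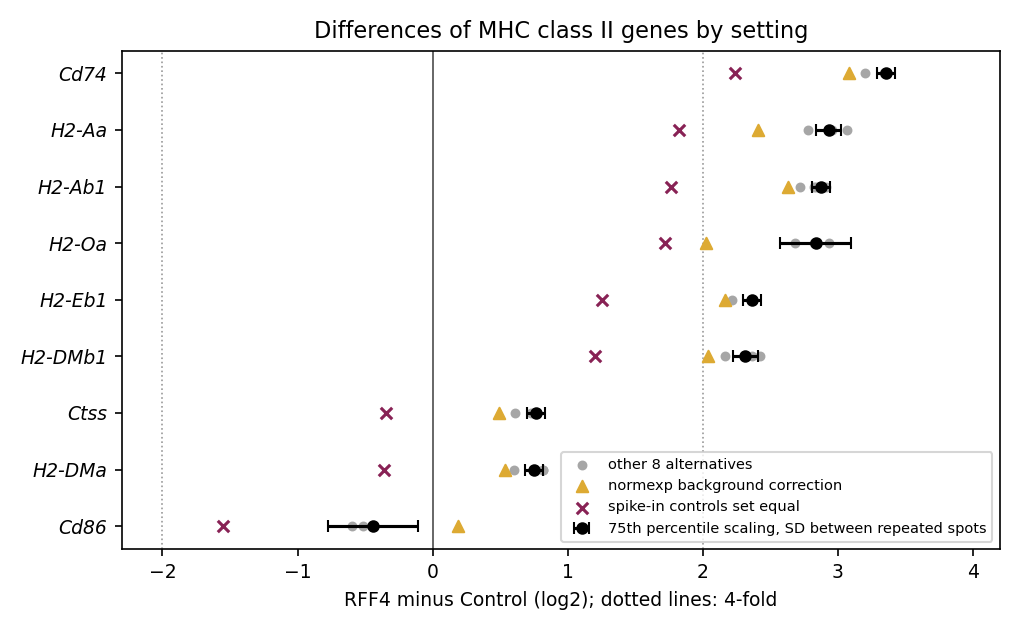
Differences (RFF4 minus Control, log2) of the 9 members that could be compared, with 75th percentile scaling (black, bars are the SD between repeated spots) and under 10 alternatives. *Cd74*, *H2-Aa*, *H2-Ab1*, *H2-Oa*, *H2-Eb1* and *H2-DMb1* lie past the 4-fold line under all but the spike-in scaling, which leaves only *Cd74* there. Several of the alternatives leave the member values the same or nearly so. *Ctss* and *H2-DMa* change sign with the spike-in scaling, and *Cd86* with normexp.

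Other genes of the pathway were taken from 8 lists of 48 genes in all, of which 43 had a difference. Of these, 6 (14%) were higher by over 2-fold, and 1 of them (2.33%) by over 4-fold. On the lower side 2 were past 2-fold and 0 past 4-fold, and the median was 0.01. Those shares stand beside 1.79% and 12.1% of all genes. Among the other class II chain genes, *H2-Eb2* had a difference of 1.84, while *H2-Ob*, whose product pairs with that of *H2-Oa*, had 0.37. The partners of H2-O thus differed by 2.46, with *H2-Ob* among the dim signals (level −3.28 on the Control array and −2.91 on the other). *H2-DMb2* was not well above background on either array.

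Of 7 endosomal enzymes, 3 were more than 2-fold higher and 1 more than 2-fold lower. These counts depend on the scaling: the list median of 0.68 became −0.43 with the spike-in controls made equal. *Lgmn*, the gene of legumain, an asparaginyl endopeptidase, went from a level of −1.84 to 0.76, a difference of 2.60, and was the only pathway gene outside the members past 4-fold. *Ctsh*, the gene of cathepsin H, had a difference of 1.41. *Ifi30*, which encodes the thiol reductase of endosomes, had 1.24. *Ctsl*, the gene of cathepsin L, was lower, from 3.40 to 1.99, a difference of −1.42. *Ctsb*, *Ctsd* and *Ctsz* lay between 0.14 and 0.68. The membrane ubiquitin ligase gene *Marchf1*, whose product sends class II molecules and CD86 to lysosomes, had 1.00 and *Marchf8* −0.10.

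With the scaling used for levels, the factors that bind class II promoters and the genes upstream of *Ciita* were mostly within 2-fold. For the 7 promoter factors of the RFX, NF-Y and CREB groups the median was −0.12 and none of the values was past 2-fold. Making the spike-in controls equal moved this median to −1.23. For *Rfx5* the difference is a bound, since its RFF4 signal did not clear the background. A drop of *Rfx5* past 2-fold can therefore not be excluded. Upstream of *Ciita* the interferon gamma receptor gene *Ifngr2* was higher, with 1.33. *Ifngr1* (0.16), *Jak1* (0.01), *Jak2* (−0.81), *Irf1* (−0.53) and *Irf8* (−0.16) were within 2-fold. Among 11 genes that interferon gamma induces, the median was −0.01, 5 were higher and 6 lower, and *Cxcl9* alone was past 2-fold, with 1.07 at dim levels of −4.29 and −3.21. With the spike-in scaling the median of this list was −1.12. That of the genes upstream of *Ciita* went from −0.16 to −1.27. *Nlrc5*, the coactivator gene of MHC class I and a relative of *Ciita*, had −0.40.

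Of 6 genes of costimulatory and coinhibitory molecules, 4 had a difference, 1 of them higher and 3 lower, with a median of −0.39 that cyclic loess moved to −0.07. *Cd80*, a ligand of CD28 like *Cd86*, had 0.42 with its brighter probe and 0.92 with the other. *Tnfsf4* had no usable bound, and *Cd40*, the gene of an activating receptor of antigen-presenting cells, was not well above background on either array. *Cd274*, which encodes PD-L1, was lower, with −1.26, from a level of 2.62 to 1.35. *Icosl* had −0.59 and *Pdcd1lg2* −0.20. On the T cell side, *Cd4* had 0.12 with its brighter probe and −1.33 with the other, and *Lag3*, a class II receptor, had −0.51.

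The sort was checked against markers of the cells it could hold. Both arrays detected the 8 T cell genes, with a median difference of 0.30 and levels of 1.56 to 8.37 on the Control array and 1.70 to 8.65 on the other. *Cd2* was past 4-fold, with 2.21. The direction of the T cell median depended on the scaling, with −0.23 under quantile normalization, −0.04 under cyclic loess and −0.81 under the spike-in scaling. Of the IEL markers, 9 of 10 were measured, with a median of −0.003 and levels of 2.14 to 9.20 and 3.44 to 10.2. The receptor gene *Klra1* (1.41) and the granzyme gene *Gzma* (1.01) were past 2-fold higher. With the spike-in scaling the IEL median was −1.12. *Cd8b1*, the gene of the chain that the gate removes, had a level of −3.31 on the Control array and did not clear the background on the other. *Cd4*, whose cells were depleted, was detected on each array, at levels of 1.88 and 2.0.

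Among markers of cells that normally make class II molecules, macrophage genes were higher on the array labelled RFF4, together with the class II chains. Of 12 macrophage genes on the array, 10 were well above background on the Control array and 11 on the other. Levels over all 12 were −6.0 to 4.53 and −4.26 to 5.44. By the probe that stood for each gene, all 11 with a difference were higher, with a median of 1.44. Of these, 9 were past 2-fold and 4 past 4-fold, beside 12.1% and 1.79% of all genes. Of the 4, *C1qa* and *C1qc* entered through the array labelled RFF4 alone, as bounds. Over the 9 genes detected on each array the median was 1.16, and *Cx3cr1* and *Lyz2* were past 4-fold. *Fcgr1*, an Fc receptor gene, was detected on the Control array only and got no difference. *Cx3cr1*, a chemokine receptor gene of intestinal macrophages, had 3.56 and the lysozyme gene *Lyz2* 2.41. The complement genes *C1qc* and *C1qa* were at least 5.62-fold and at least 4.67-fold higher. The integrin gene *Itgam* had 3 probes detected on each array, with 0.91 for the brightest and −0.40 for the lowest.

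Dendritic cell genes gave less. Of 10 listed, 6 could be compared, with a median of 0.30 and levels of −7.49 to 7.73 and −6.30 to 8.13 over the list. Quantile normalization gave −0.08 and cyclic loess 0.03 for this median. Of the 6, 4 were higher and 2 lower. *Clec10a* (1.64) and *Ccr7* (1.38) were past 2-fold, while the transcription factor genes *Zbtb46* (−0.50) and *Batf3* (−0.35) were lower. The other *Zbtb46* probe, not well above background on either array, had 0.21. The other defining markers *Flt3*, *Xcr1*, *Clec9a* and *Cd209a* were not well above background on either array. Of 9 B and plasma cell genes, 5 had a difference, with a median of 1.66 and levels of −7.17 to 4.11 and −6.37 to 5.78 over the list. *Fcrla* (2.03), *Ms4a1* (1.78) and *Jchain*, the joining chain gene of secreted antibodies (1.66), were past 2-fold. *Cr2* had 0.15 with its brighter probe and 1.19 with the other, and *Cd79b*, a chain of the B cell receptor, was lower (−0.27) at levels of 3.63 and 3.36. *Cd79a*, *Pax5* and *Blk* were among those that were not well above background on either array.

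All 15 epithelial genes were detected on each array, with levels of 0.22 to 6.15 on the Control array and 1.51 to 8.00 on the other. Each was higher on the array labelled RFF4, 13 of them past 2-fold and 0 past 4-fold, with a median of 1.62 and a range of 0.29 to 1.88. The highest was *Reg3b*, an antimicrobial lectin gene, with 1.88. With the spike-in controls made equal, the list medians fell to 0.51 for the epithelial, 0.55 for the B and plasma cell, 0.19 for the macrophage and −0.82 for the dendritic cell genes. The macrophage median then also counts a bound for *Fcgr1*. The part of macrophage, B lineage and epithelial RNA in the class II differences was not tested.

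**Figure D4:**
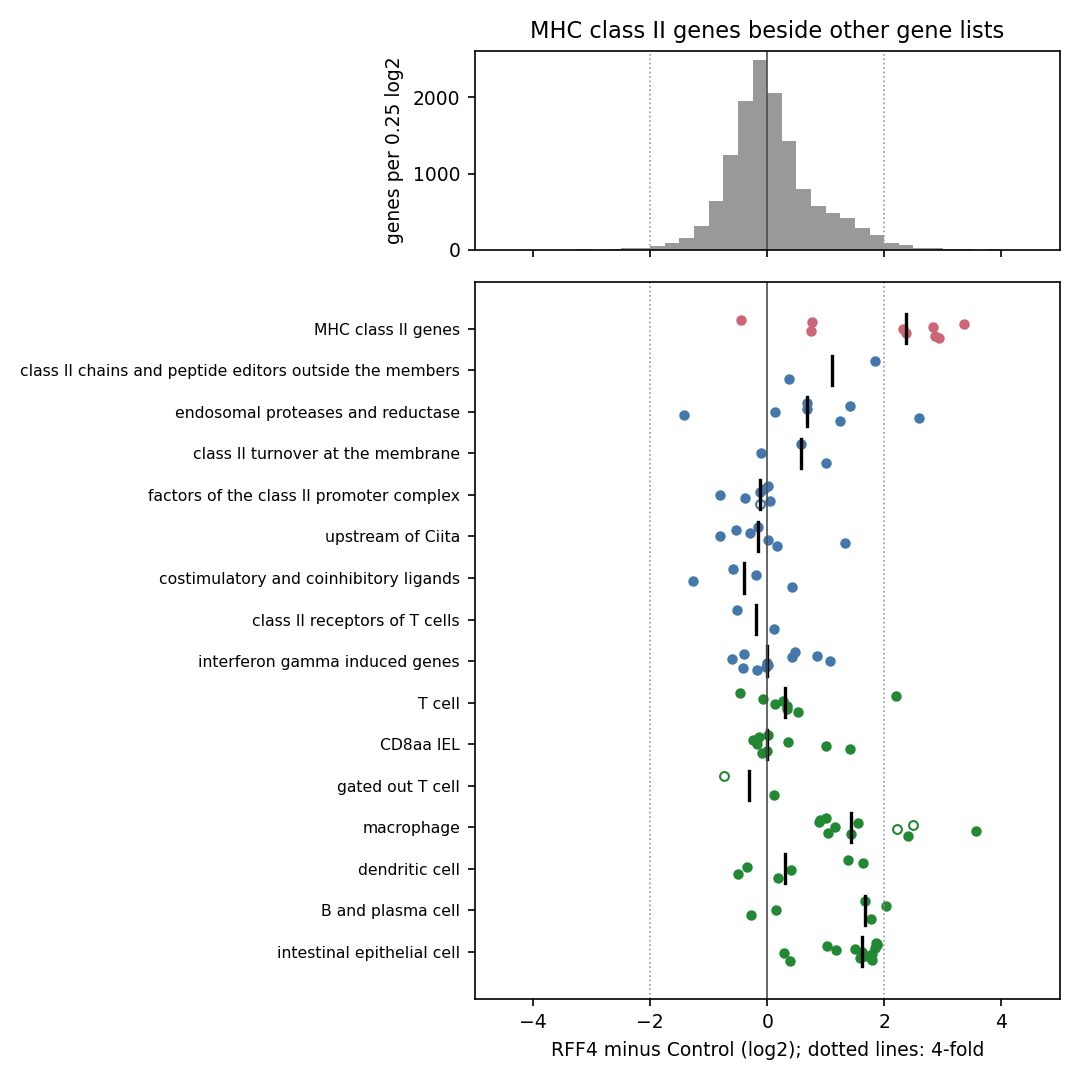
Top, number of genes per 0.25 log2 units of difference for all genes. Bottom, the difference (RFF4 minus Control, log2) of each gene in the class II members (red), the pathway lists (blue) and the cell type markers (green), with open circles for bounds and a black line at the median. The class II members have a median of 2.37, the epithelial markers 1.62, the macrophage markers 1.44 and the genes induced by interferon gamma −0.01.

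With so few arrays, likeness to the members can be measured only by this single difference. Among genes detected on each array, the 5 whose difference lay nearest to the members' median of 2.37 were *Gda*, *Car1*, *Gm8369*, *Klrb1f* and *Defa-ps1*, with differences of 2.36 to 2.38. Among all genes past 4-fold, 242 were higher and 79 lower on the array labelled RFF4. With scaling to the median these were 180 and 111, and with equal spike-in signals 29 and 948, so that the balance of higher and lower genes is set by the scaling.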

How the data were processed

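Total RNA (150 ng) of sorted IELs was labelled with Cy3 and read with Agilent Feature Extraction 10.7.1.1, per the labels. Per the file headers, the authors' software subtracted background from each spot intensity and flagged outliers, saturation and signals well above background, without normalization between arrays. The deposited normalized table, made with GeneSpring, holds a score per probe, here read as log2 values centered on the mean of both arrays within 0.001. Of its 62976 lines, 6231 hold no value and 905 are on another scale.

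From the intensities, log2 values were taken, control and outlier spots left out and spots of a probe averaged. The 75th percentile of each array, taken over 55679 gene probes, was then removed. Accessions were named through RefSeq of GRCm38.p6, and 27509 probes matched a symbol. Well above background means so marked by the software on 50% or more of the spots of a probe. Where several probes name a gene, the brightest stood for it. No member spot was saturated or an outlier (0 on each array). Genes well above background on 1 array got a bound, for which the dim signal was raised, if needed, to the lowest one marked as well above background on its array. Bounds under 1-fold were dropped. This left 13519 genes, and for 12955 both signals cleared the background. The technical SD came from probes with at least 8 usable spots, by level, and is 0.16 for a difference over all of them. Precision is limited by 1 array per genotype, and the arrays share a slide and a scan.

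The members and lists were chosen with earlier results of these data known. Members and genes of the pathway lists could be named, as could of each marker list the 3 largest differences and those past 4-fold, and the 5 genes nearest to the members' median. Other markers were chosen after their values were seen. Some listed genes are counted but not reported singly. Promoter windows are from RefSeq, GRCm38.p6, and no other coordinates of the build named in the array design were used. Tried instead were cyclic loess, quantile normalization, scaling to the median, spike-in scaling, normexp (offset 50, on median spot signals), the deposited table, the mean of probes, genes above background on both arrays, plain ratios, and outlier spots kept. The steps were tested on simulated data. Python 3.11.15 with numpy 2.4.6 and pandas 2.3.3, and R 4.3.3 with limma 3.58.1, were used, and plots were drawn with matplotlib 3.10.9.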

Additional observations from a re-analysis of the deposited data

How the results depend on the processing

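No paired analysis was possible because each genotype has 1 array, and for the same reason no array could be left out. All alternatives were chosen with earlier results of these data known. The number of members past 4-fold was 6 under 9 of the 10 alternatives and 1 under the spike-in scaling, and past 2-fold it was 6 under all 10. Not all of these could change the count. The filter to both arrays and plain ratios leave each measured member value as it was, and the mean of probes changes only *H2-Ab1*. The deposited table and kept outlier spots gave nearly the same values. Only median, quantile, cyclic loess, normexp and spike-in processing could move the members. The spike-in scaling shifts every gene by a constant, by its construction. It gave a median of 1.23 for the members, a set that then also holds a bound for *Ciita*. Past 4-fold and 2-fold were 0.204% and 1.39% of all genes. The median of the other class II chains and peptide editors was −0.0057 (1.11 with 75th percentile scaling, and 0.95 to 1.84 under the other alternatives). The spike-in scaling moved the median of all genes by −1.08, and scaling to the median moved it by −0.15. Normexp gave a median of 2.04 for the members, with *H2-Oa* at 2.02, and 0.441% of all genes past 4-fold. With no filter and plain ratios, which adds genes at background, 3.27% and 29.8% of all genes were past 4-fold and 2-fold. Without the spike-in scaling, *Cd74* lay between 3.08 and 3.36 and *H2-DMb1* between 2.04 and 2.42. The deposited table, median scaling and keeping outlier spots moved none of the 29 values recomputed under each by more than 0.16 or, for counts and shares, 1.5 times. The lower ratio of signal to background on the array labelled RFF4 (5.78 against 9.47 times, over spots well above background) limits what can be said of *Ciita* and *Cd86*.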
